A study of Mus musculus with 12 samples.

Results

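The BCL2 family decides whether the outer membrane of the mitochondrion stays closed, and 10 of its death and survival genes were followed in C2C12 myotubes exposed to the mitochondrial uncoupler BAM15. The genes were taken by symbol, with earlier results of these data known. They were the pro-survival genes Bcl2, Bcl2l1 and Mcl1, the effector genes Bax and Bak1, and the BH3-only genes Bid, Bad, Bbc3, Pmaip1 and Bcl2l11. All 10 were found among the 15113 genes of the deposited table, and all 10 passed the filter on low counts that left 12730 genes for testing. C2C12 is an established line of mouse myoblasts, whose cells fuse to multinucleated myotubes once serum is withdrawn, and the libraries came from cells labelled as fully differentiated. In the BAM15 group the myotubes received 20 μM BAM15 dissolved in DMSO for 16 h, and in the vehicle group they received DMSO for the same 16 h. The labels give no transgene or deletion for either group, and each group was represented by 6 libraries of total RNA, numbered 1 to 6.

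BCL2 proteins act on each other through a short helix called the BH3 domain. Pro-survival members such as BCL2, BCL-XL and MCL1 hold the helix in a groove, effectors such as BAX and BAK form pores in the outer membrane once activated, and BH3-only proteins carry a death signal to both classes. When pores open, cytochrome c leaves the mitochondrion, the apoptosome assembles on APAF1, and caspases are activated. An uncoupler such as BAM15 lets protons return across the inner membrane without making ATP, so the organelle it acts on is the one this family guards. Muscle fibers survive for long periods without dividing, and they are known to hold apoptosome activity low.

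The helix that gives the BH3-only class its name is shown here as the coding DNA of the 36 bases around its most conserved positions, because the genes that changed most belong to this class. Each stretch was located once in the protein-coding transcript, lies in 1 coding exon, and is printed in coding direction on GRCm38 from the GENCODE M21 transcripts. Capitals mark the codon of the conserved leucine and, further along, the codons of the small residue and the aspartate that follows it. The stretches lie at chr2:128147138-128147173 on the plus strand for Bcl2l11, chr7:16313761-16313796 on the plus strand for Bbc3, chr6:120897292-120897327 on the minus strand for Bid and chr19:6950780-6950815 on the plus strand for Bad, and Mcl1, a pro-survival gene, is added for comparison at chr3:95659424-95659459 on the plus strand.
Bcl2l11: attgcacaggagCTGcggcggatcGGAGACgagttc
Bbc3: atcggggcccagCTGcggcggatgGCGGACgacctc
Bid: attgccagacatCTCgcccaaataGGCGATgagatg
Bad: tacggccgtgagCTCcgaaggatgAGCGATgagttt
Mcl1: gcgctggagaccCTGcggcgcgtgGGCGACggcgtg
Bcl2l11 and Bbc3 shared 24 of these 36 bases, Bad and Bcl2l11 shared 21, and Bid and Bbc3 shared 16. Mcl1 shared 18 bases with Bcl2l11 and 19 with Bbc3. Pmaip1 is named here without a sequence.

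Libraries were made with QuantSeq, which reads the 3′ end of polyadenylated RNA, so that a transcript gives about the same number of reads whatever its length. Total counts ranged from 13983725 to 18751780 over the BAM15 libraries and from 15299135 to 18866728 over the vehicle libraries, and the 10 genes had between 153 and 2897 counts per library. The first principal component held 66.7% of the variance and separated the groups, and the second, with 18.5%, separated BAM15 libraries numbered 1 to 3 from those numbered 4 to 6. The labels name no batch for these numbers and do not say that libraries came from separate cultures, so p-values measure the spread between these libraries, which may be technical. All 8 myotube markers were abundant, with summed normalized counts of 398609 to 433555 in vehicle and 372956 to 479186 in BAM15 libraries. With edgeR, 5 of the 8 were called, Acta1 and Myog higher (0.46 and 0.37 on the log2 scale) and Mymk, Mylpf and Ckm lower (-0.27, -0.23 and -0.17). All 3 markers of undifferentiated or cycling myoblasts passed the test: Myf5 rose by 1.69 on the log2 scale, Pax7 fell by 0.93 and Mki67 fell by 1.80, and the summed normalized count of the 3 was 920 to 1246 in vehicle and 547 to 1131 in BAM15 libraries. Fibroblast markers summed to at most 71.4 normalized counts, and Csf1r, a macrophage gene, was removed by the filter. The other listed markers of blood, fat and endothelium were not found among the genes with deposited counts. The part of these markers in the results below was not tested, and in bulk RNA fewer cells of a type and less RNA per cell cannot be told apart.

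BAM15 raised 3 of the 10 genes at an adjusted p-value below 0.01, the threshold of the study's methods, and lowered 0 with edgeR. At an unadjusted p below 0.05 there were 6 higher and 1 lower, Bak1, against 30.2% and 28.5% of all tested genes. DESeq2 also called Bax higher and Bak1 lower at the adjusted threshold. The 3 genes called with edgeR at that threshold were the BH3-only genes Bcl2l11 and Bbc3, which rose 4.29-fold and 3.28-fold, and the pro-survival gene Bcl2, which rose 1.26-fold. Over all tested genes 22.0% rose and 20.3% fell at this threshold in the quasi-likelihood test of edgeR, with p-values adjusted by Benjamini and Hochberg's method (BH), 42.3% in either direction, so the share of the family that was called was no larger than that of all genes. With the added requirements of a mean normalized count above 50 and a change of more than 2-fold, 2 of the 10 genes remained, Bcl2l11 and Bbc3, whereas 3.70% of all genes rose and 3.58% fell past these thresholds, 7.28% in either direction. The median log2 fold change was 0.24 over the 10 genes and 0.02 over all tested genes. The groups did not overlap in 2 of the 10 genes, again Bcl2l11 and Bbc3, both higher after BAM15, whereas 17.1% of all tested genes were higher without overlap and 34.2% were without overlap in either direction.

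**Figure D1:**
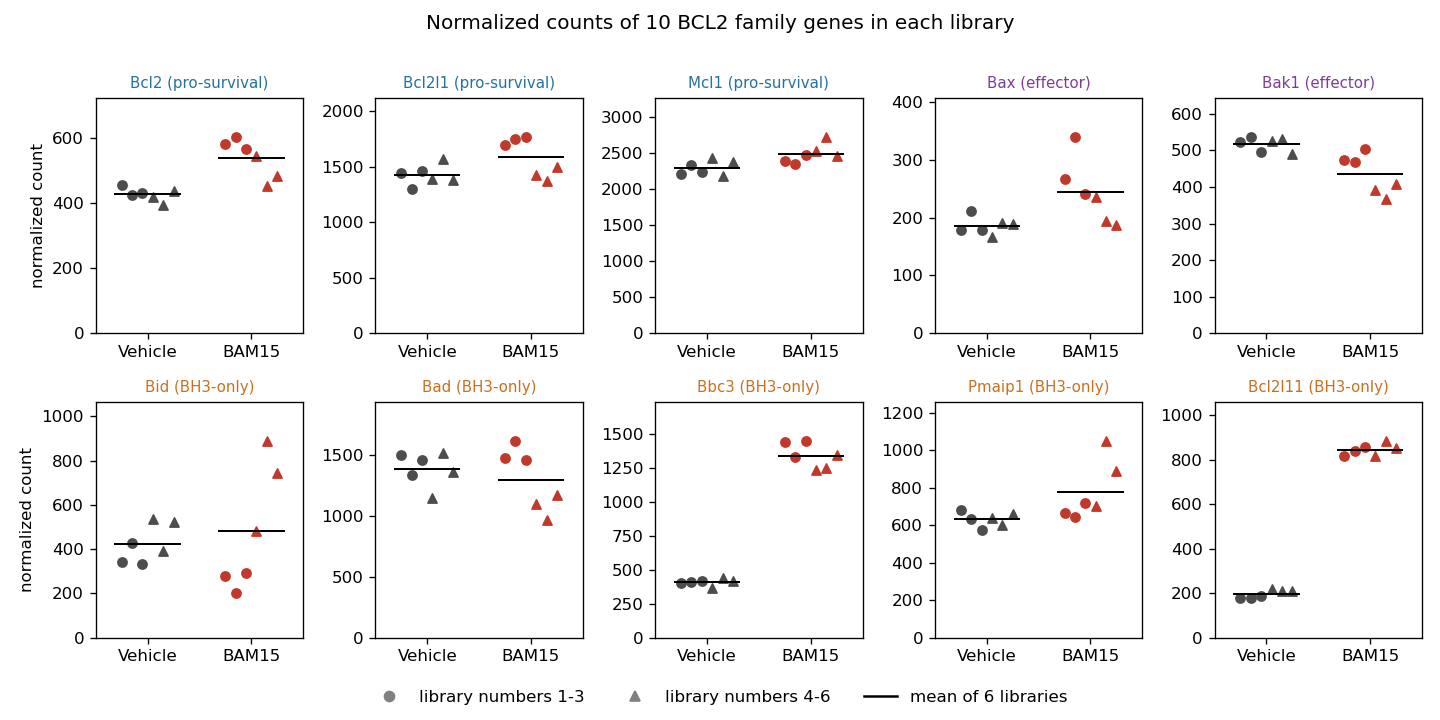
Normalized counts of the 10 genes in each library, with vehicle in grey and BAM15 in red, circles for library numbers 1 to 3, triangles for numbers 4 to 6 and a line at the mean of the 6 libraries. Each vertical axis starts at 0. Bcl2l11 and Bbc3 lie above every vehicle library in all 6 BAM15 libraries, and in Bid the BAM15 triangles lie above the BAM15 circles.

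Among the BH3-only genes, Bcl2l11 encodes BIM, which binds every major pro-survival member and can also activate BAX directly. Its normalized counts in the vehicle libraries ranged from 178 to 219 with a median of 197, and in the BAM15 libraries from 815 to 883 with a median of 846. The lowest BAM15 library was thus far above the highest vehicle library, and the 6 BAM15 libraries were close to each other. The mean rose from 197 ± 17.8 to 844 ± 26.1 normalized counts (SD, n = 6 each), a log2 fold change of 2.10 (standard error 0.068, 95% interval 1.96 to 2.25, edgeR BH-adjusted p = 2.06e-12).

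Bbc3 encodes PUMA, a BH3-only protein best known as a target of p53 that also binds all pro-survival members. Its normalized counts ranged from 367 to 439 in the vehicle libraries, with a median of 413, and from 1231 to 1447 in the BAM15 libraries, with a median of 1335. No BAM15 library came near the vehicle range. Its mean rose from 408 ± 24.1 to 1339 ± 90.4 (SD, n = 6 each), a log2 fold change of 1.71 (standard error 0.062, 95% interval 1.58 to 1.85, edgeR BH-adjusted p = 8.98e-12).

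Pmaip1 encodes NOXA, a BH3-only protein that binds MCL1 in particular and promotes its degradation. Its vehicle libraries ranged from 572 to 680 normalized counts with a median of 637, and its BAM15 libraries from 646 to 1050 with a median of 711. The ranges overlapped, and the 2 highest values, 888 and 1050, were both BAM15 libraries numbered 4 to 6. The log2 fold change of 0.30 (standard error 0.11, 95% interval 0.07 to 0.53) had an edgeR BH-adjusted p of 0.0293 and did not pass the threshold of 0.01.

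Bid is cut by caspase 8 and so links death receptors to the mitochondrion, and Bad is held inactive by phosphorylation downstream of AKT. Bid ranged from 333 to 535 normalized counts in vehicle (median 409) and from 200 to 888 in BAM15 libraries (median 386). The BAM15 libraries spread to both sides of the vehicle range, with 3 below its lowest and 2 above its highest value, and the log2 fold change was 0.18 (95% interval -0.56 to 0.91, edgeR BH-adjusted p = 0.685). Bad ranged from 1149 to 1514 in vehicle (median 1414) and from 970 to 1616 in BAM15 libraries (median 1319), with a log2 fold change of -0.10 (95% interval -0.35 to 0.15, edgeR BH-adjusted p = 0.508). The intervals of both genes hold 0, and that of Bid also holds both a fall and a rise larger than the change of Bcl2, so no direction can be given for either gene over all 12 libraries. Without BAM15 replicate 5, the library with the most Bid, the log2 fold change of Bid was -0.095.

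Among the pro-survival genes, Bcl2 is the founding member, which sits on mitochondria and on the endoplasmic reticulum. Its normalized counts ranged from 396 to 457 in the vehicle libraries, with a median of 428, and from 454 to 604 in the BAM15 libraries, with a median of 556. In 5 of 6 BAM15 libraries it was above the highest vehicle library, and the remaining one fell just inside the vehicle range. The log2 fold change was 0.33 (standard error 0.075, 95% interval 0.17 to 0.49, edgeR BH-adjusted p = 0.00163).

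Bcl2l1, whose long product BCL-XL protects differentiated cells, ranged from 1302 to 1572 normalized counts in vehicle (median 1420) and from 1375 to 1768 in BAM15 libraries (median 1596). Mcl1, whose protein is short-lived and needed by many cell types, ranged from 2176 to 2430 in vehicle (median 2287) and from 2344 to 2720 in BAM15 libraries (median 2463). For both genes the groups overlapped and the test was not passed. The log2 fold change of Bcl2l1 was 0.15 (95% interval -0.0047 to 0.31, edgeR BH-adjusted p = 0.0944), and that of Mcl1 was 0.12 (95% interval 0.0073 to 0.23, edgeR BH-adjusted p = 0.0673). The counts do not separate the long and short forms of Bcl2l1 and Mcl1, which have opposite effects on survival in each gene and are read together at the 3′ end.

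The effectors Bax and Bak1, which form the pores, had changes of opposite sign, and neither passed the threshold of 0.01. Bax ranged from 166 to 212 normalized counts in vehicle (median 184) and from 188 to 339 in BAM15 libraries (median 238), with 4 of 6 BAM15 libraries above the highest vehicle library and a log2 fold change of 0.39 (95% interval 0.12 to 0.67, edgeR BH-adjusted p = 0.0179). Bak1 ranged from 490 to 537 in vehicle (median 524) and from 368 to 503 in BAM15 libraries (median 438), with 5 of 6 BAM15 libraries below the lowest vehicle library and a log2 fold change of -0.25 (95% interval -0.42 to -0.08, edgeR BH-adjusted p = 0.0155). At an adjusted p-value below 0.05 these would be called together with Pmaip1, which makes 6 of the 10 genes, 5 of them higher, against 54.1% of all genes tested with edgeR and 28.0% that were higher. Both effectors passed 0.01 when DESeq2's Wald test was used in place of edgeR, with BH-adjusted p-values of 0.00959 for Bax and 0.00566 for Bak1, and leaving out a single BAM15 library also took Bax (without replicate 5 or 6) and Bak1 (without replicate 3) past it.

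**Figure D2:**
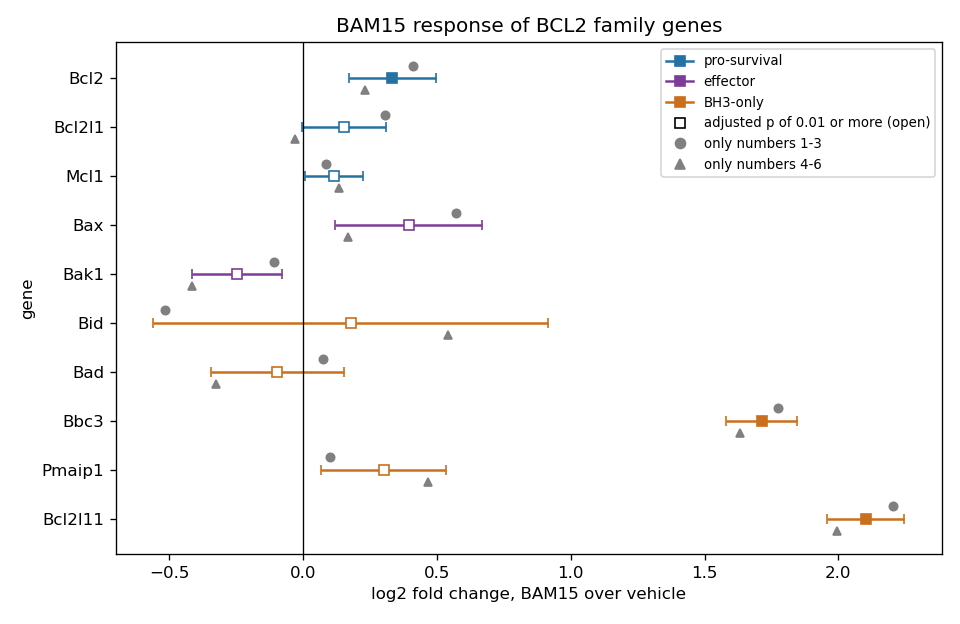
Log2 fold change of each gene, BAM15 over vehicle, from edgeR on all 12 libraries as squares with 95% intervals, filled where the adjusted p-value was below 0.01 and open otherwise, colored by role. Grey circles and triangles are the values from fits on libraries numbered 1 to 3 only and 4 to 6 only. Bcl2l11 and Bbc3 stand at 2.10 and 1.71 with narrow intervals, and the interval of Bid runs from -0.56 to 0.91.

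Within the BAM15 group, libraries 4 to 6 were set against libraries 1 to 3, and 7 of the 10 genes differed at an edgeR BH-adjusted p below 0.05, against 38.8% of all tested genes. The gene that differed most was Bid, at 200, 277 and 291 normalized counts in BAM15 libraries 1 to 3 and at 481, 746 and 888 in libraries 4 to 6. The sets did not overlap, and the difference was 1.46 on the log2 scale (standard error 0.23, edgeR BH-adjusted p = 0.000771). Pmaip1 was also higher in numbers 4 to 6, by 0.38 (edgeR BH-adjusted p = 0.0133). The other genes that differed were lower in numbers 4 to 6, by log2 differences of -0.49 for Bad, -0.45 for Bax, -0.31 for Bak1, -0.28 for Bcl2l1 and -0.24 for Bcl2. The 3 genes without such a difference were Mcl1 (0.10), Bbc3 (-0.14) and Bcl2l11 (0.02). Between vehicle libraries with the same numbers, 0 of the 10 genes and 0 of all tested genes (0%) reached an edgeR BH-adjusted p below 0.05. At an unadjusted p below 0.05 there were 1 of the 10 and 696 of the 12730 tested genes. That 1 gene was Bcl2l11, higher in vehicle libraries 4 to 6 by 0.23 on the log2 scale (standard error 0.087).

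Whether the response to BAM15 itself differed between these numbers was tested by the interaction term, which 0 of the 10 genes passed at an edgeR BH-adjusted p below 0.05, whereas 2.66% of all genes did. At an unadjusted p below 0.05 there were 5 of the 10 genes, against 26.0% of all genes. The 3 genes with the lowest p were Bcl2l1, with an interaction of -0.33 on the log2 scale (edgeR BH-adjusted p = 0.0685), Bid with 1.07 (standard error 0.32, BH-adjusted p = 0.0793) and Bad with -0.40 (BH-adjusted p = 0.0859). Fitted on numbers 1 to 3 alone, the log2 fold change of Bid was -0.52 (edgeR BH-adjusted p = 0.00352), and fitted on numbers 4 to 6 alone it was 0.54 (BH-adjusted p = 0.0922). In the model of all 12 libraries with 4 groups, the same effects of -0.52 and 0.55 had edgeR BH-adjusted p-values of 0.0858 and 0.0524, so the call of Bid within numbers 1 to 3 depends on the fit. Bcl2l1 passed the threshold within numbers 1 to 3 (0.30, edgeR BH-adjusted p = 0.000421) and stood at -0.03 within numbers 4 to 6 (BH-adjusted p = 0.799). Bcl2 was called within numbers 1 to 3 (0.41, edgeR BH-adjusted p = 0.000247) and not within numbers 4 to 6 (0.23, BH-adjusted p = 0.0848).

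Bcl2l11 and Bbc3 were called in either set. The log2 fold change of Bcl2l11 was 2.21 within numbers 1 to 3 (edgeR BH-adjusted p = 6.76e-14) and 1.99 within numbers 4 to 6 (BH-adjusted p = 4.42e-09). For Bbc3 it was 1.78 (edgeR BH-adjusted p = 1.36e-13) and 1.63 (BH-adjusted p = 2.54e-08). Bax was called within numbers 1 to 3 only (0.57, edgeR BH-adjusted p = 0.00104) and Bak1 within numbers 4 to 6 only (-0.42, BH-adjusted p = 0.0039), and their interaction terms had adjusted p-values of 0.21 and 0.121. The model with 4 groups made these same calls of Bax and Bak1, and within numbers 4 to 6 it also called Pmaip1 (0.47, edgeR BH-adjusted p = 0.00195) and Bad (-0.32, BH-adjusted p = 0.00912), which the fit on those numbers alone did not (0.0112 and 0.027).

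The order of the genes by level changed with BAM15. Levels are given as CPM, the count of a gene scaled to a common library size, which in 3′ end libraries do not scale with transcript length. In vehicle libraries Mcl1 was the most abundant at 136 ± 5.95 CPM (SD, n = 6), followed by Bcl2l1 at 84.4 ± 5.36 and Bad at 82.2 ± 8.15, whose order reversed in 3 of 6 libraries. Next came Pmaip1 (37.4 ± 2.30) and Bak1 (30.6 ± 1.15), then Bcl2 (25.3 ± 1.19), Bid (25.1 ± 5.13) and Bbc3 (24.2 ± 1.42), whose levels lay within their spread of each other. Bcl2l11 (11.6 ± 1.05) and Bax (11.0 ± 0.925) were the lowest. After BAM15, Bbc3 had moved up to 79.2 ± 5.35 CPM, level with Bad at 76.8 ± 15.1, and Bcl2l11 to 49.9 ± 1.54, above Pmaip1 (46.0 ± 9.36) in 4 of 6 libraries. Mcl1 at 147 ± 7.83 and Bcl2l1 at 93.7 ± 10.3 remained the highest, and Bax remained lowest at 14.4 ± 3.28.

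Summed by role, the 5 BH3-only genes held 3050 ± 109 normalized counts in vehicle and 4741 ± 265 in BAM15 libraries (SD, n = 6 each). The lowest BAM15 library held 4326 and the highest vehicle library 3174. Bcl2l11 and Bbc3 together went from 605 ± 26.8 to 2183 ± 90.3, while Bid, Bad and Pmaip1 together were at 2446 ± 93.7 and 2558 ± 245, ranges that overlapped. The 3 pro-survival genes summed to 4146 ± 63.6 in vehicle and 4608 ± 138 in BAM15 libraries, and the effectors to 703 ± 28.4 and 679 ± 97.6. As shares of the counts of all 10 genes, the BH3-only class went from 38.6% ± 0.92 to 47.3% ± 1.95 and the pro-survival class from 52.5% ± 0.93 to 46.0% ± 1.24. These sums are a description of transcripts and were not tested, and they say nothing of protein amounts.

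**Figure D3:**
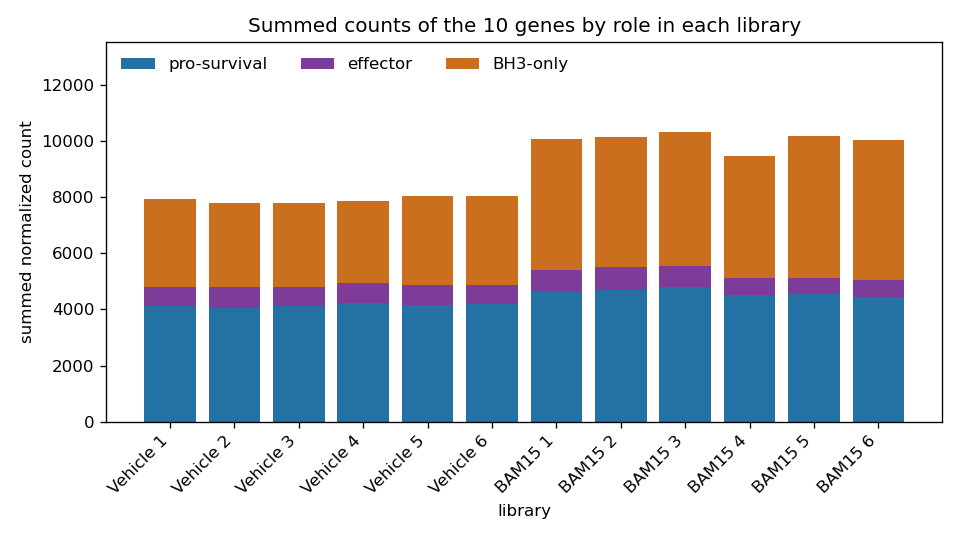
Summed normalized counts of the 10 genes in each of the 12 libraries, stacked by role with pro-survival genes in blue, effectors in purple and BH3-only genes in orange. The orange segment is taller in each BAM15 library than in any vehicle library, at 4326 to 5041 against 2908 to 3174 normalized counts.

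The rest of the family was read from a list of 15 further genes, of which 8 were tested and the other 7 were not found among the genes with deposited counts. Of these 8, 0 rose and 4 fell with edgeR at a BH-adjusted p below 0.01, where 22.0% of all tested genes rose and 20.3% fell. The counts were the same at an unadjusted p below 0.05, where 30.2% of all tested genes rose and 28.5% fell. Of the 8, 0 passed the further thresholds in either direction, against 7.28% of all tested genes, and their median log2 fold change was -0.24. Bok, an effector-like relative of BAX, fell from 877 ± 36.8 to 475 ± 39.0 normalized counts (log2 fold change -0.88, edgeR BH-adjusted p = 1.83e-08). Bcl2l13 and Bnip3, which are known as mitophagy receptors, fell by 0.59 (edgeR BH-adjusted p = 9.72e-07) and by 0.68 (BH-adjusted p = 0.000113) on the log2 scale, and Bnip3l, a further receptor of this kind, was the fourth. Of the 400 terminal bases of Bnip3, 272 lie opposite exons of Gm45507, and of those of Bcl2l13, 115 lie opposite exons of Bid. The further BH3-only genes Bmf and Bik had low counts and did not pass the test, at 26.7 and 33.4 normalized counts in vehicle and BAM15 for Bmf and 23.0 and 22.3 for Bik.

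Downstream of the pores, 16 of 17 listed genes of the apoptosome, the caspases and their inhibitors were tested. Of these, 1 rose and 6 fell with edgeR at a BH-adjusted p below 0.01, where 22.0% of all tested genes rose and 20.3% fell. The median log2 fold change of the 16 was -0.17. Apaf1, the scaffold of the apoptosome, was the one that rose, from 54.2 ± 12.1 to 118 ± 45.1 normalized counts (log2 fold change 1.12, standard error 0.23, edgeR BH-adjusted p = 0.000857). Birc5 encodes survivin, which inhibits caspases and is also needed for chromosome segregation in dividing cells. It fell from 2018 ± 115 to 408 ± 35.2 (log2 fold change -2.31, edgeR BH-adjusted p = 7.71e-13), beside the fall of the proliferation marker Mki67 given above. Casp9, the initiator activated by APAF1, fell by 0.39 (edgeR BH-adjusted p = 0.0001), Casp6 fell by 0.78 (BH-adjusted p = 2.20e-07), and Dffa, the inhibitor of the apoptotic DNase, fell by 0.60 (BH-adjusted p = 4.93e-05). Of the 50-base windows at the 3′ end of Dffa, 33.3% are shared with Fmr1, so its count is uncertain.

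Upstream, 7 of 7 genes of the death receptor arm were tested, with a median log2 fold change of 0.04. With edgeR 2 rose and 0 fell at a BH-adjusted p below 0.01, where 22.0% of all tested genes rose and 20.3% fell. At an unadjusted p below 0.05 there were 3 higher and 0 lower, where 30.2% of all tested genes were higher and 28.5% lower. Tnfrsf10b, the mouse receptor for the ligand TRAIL, rose from 272 ± 35.5 to 558 ± 133 normalized counts (log2 fold change 1.04, edgeR BH-adjusted p = 3.29e-05). Its 3′ end shares 8.55% of its windows with other genes. Tnfrsf1a, a receptor of tumor necrosis factor, rose by 0.29 (edgeR BH-adjusted p = 0.000384). Ripk1, a kinase that docks at such receptors, was at 0.58 (edgeR BH-adjusted p = 0.0141), and Fadd, the adaptor that recruits caspase 8, was at -0.14 (BH-adjusted p = 0.231), and neither passed the threshold. Casp8, which encodes caspase 8 and was counted with the caspases above, fell from 210 ± 18.8 to 141 ± 25.5 normalized counts (log2 fold change -0.57, edgeR BH-adjusted p = 0.000662). Of the windows at the 3′ end of Casp8, 5.98% are shared with Gm20257.

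Transcription factors known to act on BH3-only genes were measured as a list of 8, of which 7 were tested and all 7 were called, 5 higher and 2 lower, with a median log2 fold change of 0.53, where 42.3% of all tested genes were called and 22.0% were higher. Ddit3, which encodes the stress factor CHOP, rose from 799 ± 70.3 to 15889 ± 2993 normalized counts (log2 fold change 4.31, edgeR BH-adjusted p = 9.44e-13). Of its 400 terminal bases, 68 lie opposite exons of Mars. Atf4, its partner and activator in the integrated stress response, rose from 9573 ± 706 to 41062 ± 6960 (2.10, edgeR BH-adjusted p = 2.97e-10). Foxo3, a factor known to act on Bcl2l11 and Bbc3, rose from 738 ± 94.4 to 1023 ± 88.6 (0.47, edgeR BH-adjusted p = 0.000351), while its relative Foxo1 fell by 0.37 (BH-adjusted p = 3.09e-05). Trp53, which encodes p53, rose by 0.65 (edgeR BH-adjusted p = 0.000822), and Jun, a part of AP-1, rose by 0.53 (BH-adjusted p = 4.29e-05). E2f1, a factor of the cell cycle, fell from 419 ± 22.0 to 207 ± 34.7 (-1.02, edgeR BH-adjusted p = 6.34e-07). RNA levels of a factor do not measure its activity, which for p53 and the FoxO proteins is set largely after translation.

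Because Bcl2l11 and Bbc3 rose together, the promoters of the family were searched for motifs on both strands, over the 250 bases before each RefSeq start on GRCm38.p6. The motifs were those of ATF4 with CHOP, of p53 and of FoxO proteins, and CCAAT. No motif of Jun or E2F1 was searched. Windows were matched for 9 of the 10 genes, 15 windows in all, with none for Pmaip1, and alternative starts of a gene can give windows that overlap. TGATGNAA, the composite site of ATF4 and CHOP, was in 0 of the 15 windows and in 3.45% of 32851 promoters, and TGCAAT, the part of that site bound by C/EBP factors, was in 0 windows and in 7.32% of promoters. CCAAT, a general promoter motif that binds NF-Y, was in 4 windows, and 33.8% of all promoters held it. These windows belong to Bcl2l11, Bbc3 and Bad, so Bcl2l11 and Bbc3 have this motif in common as well as the FoxO motif given below. The p53 decamer was in 1 window, that of Bax, and in 7.13% of promoters. TGTTTAC, the core bound by FoxO proteins, was in 2 windows, 1 of Bcl2l11 and 1 of Bbc3, and in 3.17% of all promoters. These stretches are printed in the direction of the gene with the motif in capitals, which for Bcl2l11 reads as its reverse complement, at chr2:128125791-128125837 on the plus strand for Bcl2l11 and chr7:16310074-16310120 on the plus strand for Bbc3.
Bcl2l11: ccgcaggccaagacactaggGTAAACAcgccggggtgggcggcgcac
Bbc3: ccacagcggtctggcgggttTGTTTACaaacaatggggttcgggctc
In Bcl2l11 the motif begins at position -227 and in Bbc3 at position -167 from the start that its window belongs to, and the other windows of both genes lack it. The stretch of Bcl2l11 lies upstream of the gene, and that of Bbc3 lies inside the gene as GENCODE annotates it, since a longer transcript starts before it. A match of letters is not evidence of binding, and a window without one says nothing of the factor.

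Proteins that set the stability or the location of family members were the last list, with 10 of 11 genes tested. With edgeR 2 rose and 5 fell at a BH-adjusted p below 0.01, where 22.0% of all tested genes rose and 20.3% fell. The median log2 fold change of the 10 was -0.20. Fbxw7, a ubiquitin ligase subunit that marks MCL1 for degradation, fell from 3352 ± 239 to 1597 ± 208 normalized counts (log2 fold change -1.07, edgeR BH-adjusted p = 3.13e-08). Dynll1 and Dynll2 are dynein light chains, known to tether BIM and BMF to the cytoskeleton. Dynll1 fell from 4443 ± 194 to 2201 ± 84.4 (-1.01, edgeR BH-adjusted p = 1.81e-10), and Dynll2 fell by 0.32 (BH-adjusted p = 9.75e-05). Btrc, a ligase subunit that acts on BIM, fell by 0.40 (edgeR BH-adjusted p = 0.000197). Ppp3ca, a catalytic subunit of calcineurin, which can dephosphorylate BAD, rose from 5249 ± 223 to 9398 ± 787 (0.84, edgeR BH-adjusted p = 2.01e-08). The RNA of BAD itself, as given above, did not pass the test.

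**Figure D4:**
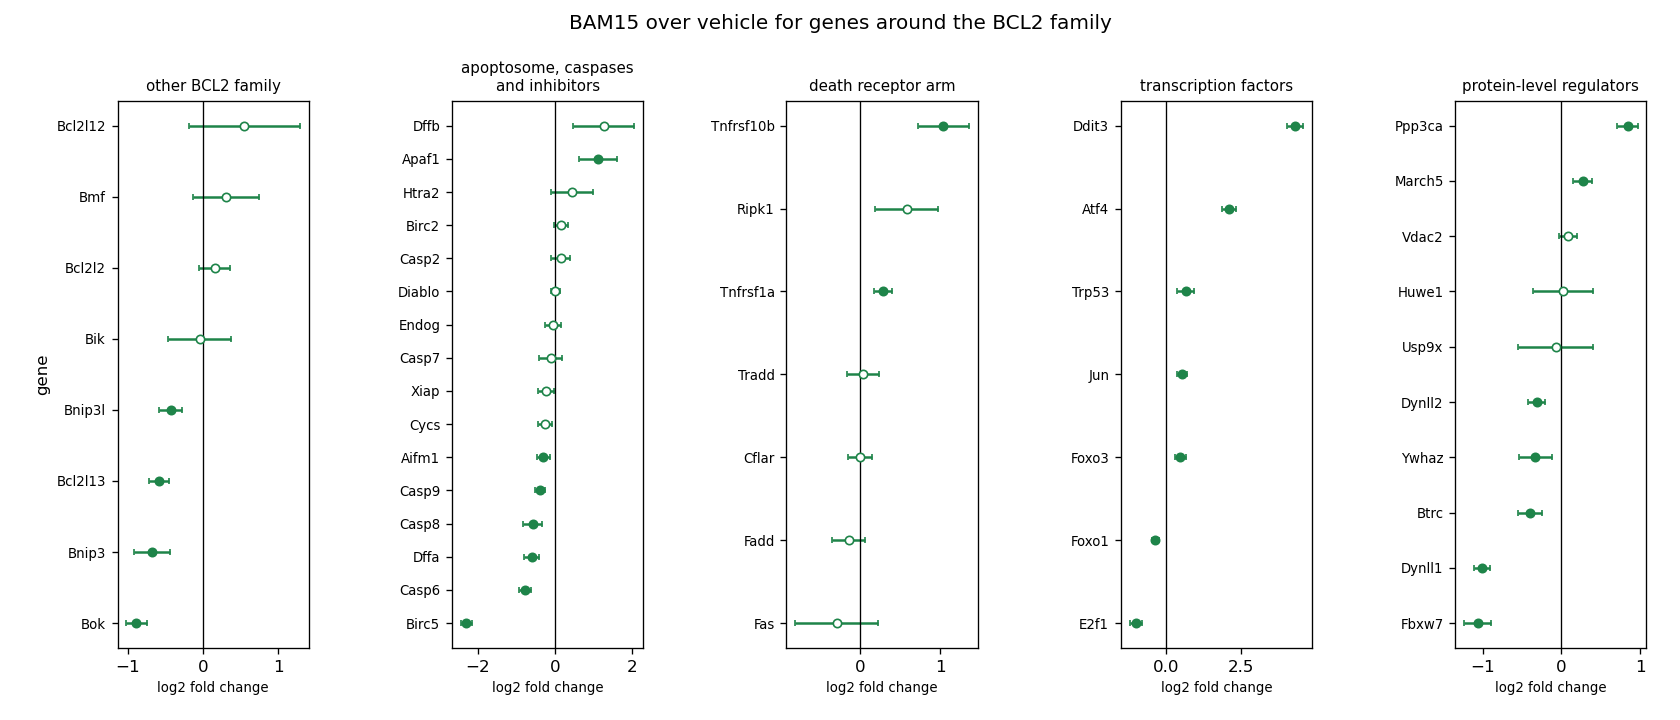
Log2 fold change, BAM15 over vehicle, of the tested genes of the 5 lists around the family, with 95% intervals, filled where the edgeR adjusted p-value was below 0.01 and open otherwise. Each panel has its own horizontal axis. Ddit3 at 4.31 and Birc5 at -2.31 are the extremes, and in the panel of other BCL2 family genes every filled point is below 0. Of all tested genes, 22.0% rose and 20.3% fell at this threshold.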

How the data were processed

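RNA of 6 BAM15 and 6 vehicle C2C12 libraries was analysed. The authors prepared QuantSeq libraries, aligned and counted forward reads with BlueBee software, and deposited unnormalized counts, each a whole number of reads for 1 Ensembl gene. The submitters' processing notes name GRCm38, mm10 and DESeq2 1.22.2, and the strand used for counting is not given in the sources used here. The authors also deposited a normalized signal, in which each library's counts are divided by its own size factor (0.836 to 1.07) and which served for 1 alternative. The labels and the methods differ in read length and passages. The tables hold 11 further columns of other samples, which were not used.

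In R 4.3.3 with edgeR 4.0.16, filterByExpr removed 2383 genes, TMM factors ranged from 0.932 to 1.04, and a robust quasi-likelihood model of condition alone was fitted to the remaining 12730 genes, with Benjamini-Hochberg adjustment. Calls used an adjusted p below 0.01, with a mean normalized count above 50 and a change above 2-fold for the 3 thresholds of the methods. A standard error is the log2 fold change divided by the square root of F. A second model with 4 groups (condition by library numbers 1 to 3 and 4 to 6) gave the differences between these numbers. For 2293 identifiers without a symbol, 2260 symbols were taken from GENCODE M21. No libraries of a condition were copies of each other, since all pairs differed beyond sampling noise (chi-square per gene 5.00 to 85.2). The last 400 bases of the 10 genes' protein-coding transcripts overlapped no other gene and shared no window of 50 bases. Motifs and stretches came from RefSeq promoters and GENCODE transcripts.

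The 10 genes and the 5 lists were chosen with earlier results of these data known. All 10 genes are described, and from each list every gene past the 3 thresholds and up to 3 others with the lowest p are named. Trp53, Bnip3l, Bmf, Bik, Trim17, Dffb, Fas and Casp8 were added after their values were seen. A further gene of these lists is not reported here. Alternatives were DESeq2 1.42.0, limma-voom and limma 3.58.1 on the log2 signal plus 1, other scalings and filters, no robust moderation, a replicate block, a term for or a restriction to library numbers, another p threshold, and each library left out in turn. On simulated data with 12419 tested genes, in which 100 were changed 2-fold and 100 changed 3-fold, the edgeR test of BAM15 against vehicle recovered 96 and 100, with 1 false call. The simulated libraries held no difference between library numbers and far fewer changed genes than the real ones. The error rate in the real data was thus not measured. Figures were drawn with matplotlib 3.10.9 in Python 3.11.15.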

Additional observations from a re-analysis of the deposited data

Results flagged for a closer look

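E2f1, a transcription factor of the cell cycle that is known to act on BH3-only genes, was 1 of 2 genes among the 10 and the 5 lists whose response to BAM15 differed between library numbers by the interaction term. Of all tested genes, 2.66% passed the same test at an edgeR BH-adjusted p below 0.05. E2f1 fell by 0.77 on the log2 scale within numbers 1 to 3 and by 1.31 within numbers 4 to 6, a difference of -0.54 (edgeR BH-adjusted p = 0.0444). In all 6 BAM15 libraries it was below the lowest vehicle library, at 164 to 240 against 386 to 441 normalized counts. The other was Fas, a death receptor with 21 to 66 counts per library, whose BAM15 effect was -1.02 within numbers 1 to 3 and 0.26 within numbers 4 to 6, a difference of 1.29 (edgeR BH-adjusted p = 0.0454). Over all 12 libraries Fas did not pass the test (log2 fold change -0.29, BH-adjusted p = 0.333).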

How the results depend on the processing

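Bcl2l11 and Bbc3 kept their direction and their call under all 25 alternatives each, with log2 fold changes of 1.99 to 2.21 and 1.63 to 1.78, and the number of the 10 genes past the 3 thresholds was 2 throughout. The number called at an adjusted p below 0.01 was 3 in the report, 5 with DESeq2's Wald test, 5 with a term for library numbers, 6 with only numbers 1 to 3, and 6 at an adjusted p below 0.05, while over all genes 5379 were called in the report and 5844, 6066, 5730 and 6884 under these alternatives. It was 3 to 4 as each library was left out, with 2 past the 3 thresholds each time, while over all genes 4874 to 5509 were called and 922 to 955 passed the 3 thresholds. Bcl2 lost its call only within numbers 4 to 6. Bax was called under 5 and Bak1 under 7 alternatives, among them leaving out BAM15 replicate 5 (Bax, edgeR BH-adjusted p = 0.00582), 6 (Bax, 0.00607) or 3 (Bak1, 0.00591). The direction reversed for Bid with limma-voom (-0.0078), with limma on the deposited signal (-0.062), with only numbers 1 to 3 (-0.52) and without BAM15 replicate 5 (-0.095, against up to 0.34 as other libraries were left out), for Bcl2l1 with only numbers 4 to 6 (-0.029) and for Bad with only numbers 1 to 3 (0.076), and the cause was not tested. Of 250 gene results, 230 kept direction and call.

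Same-number correlations were 0.24, 0.04, 0.38, 0.20, -0.08 and 0.32, not all above 0.1, so the libraries were not treated as paired. With the number as a replicate block, 3 of the 10 genes were called and 2 passed the 3 thresholds, and over all genes 5292 were called and 933 passed. BAM15 libraries 1 to 3 each correlated best with vehicle library 3, and BAM15 libraries 4 to 6 with vehicle library 6, a hint from the data and not from the design. With 153 counts or more in every library, a value could be given for each of the 10 genes at this depth.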

Other observations

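Bid and Bcl2l13 lie end to end on opposite strands of chromosome 6. The protein-coding transcript of Bid ends 11 bases from the end of Bcl2l13, and a longer Bid transcript overlaps exons of Bcl2l13 by 628 bases, so without knowledge of the strand used for counting some of their reads could not be told apart. Within numbers 1 to 3 both genes were lower after BAM15, by log2 fold changes of -0.61 for Bcl2l13 and -0.52 for Bid. Within numbers 4 to 6 the effects were -0.56 and 0.55 in the same edgeR model with 4 groups. The part of such reads in these values was not tested.

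Among the genes with few reads, Trim17, a ubiquitin ligase that acts on MCL1, was removed by the filter and stood at 2.38 normalized counts in vehicle and 12.9 in BAM15 libraries, with 1 to 4 and 7 to 19 counts per library. Dffb, the apoptotic DNase, had 3 to 13 counts in vehicle and 10 to 35 in BAM15 libraries, with a log2 fold change of 1.27 that missed the threshold (edgeR BH-adjusted p = 0.0104).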
